A study of Caenorhabditis elegans with 2 samples.

Results

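Divergent promoter pairs are neighbouring protein-coding genes that are transcribed away from each other, so that the DNA between their starts serves as upstream sequence for both. In the C. elegans annotation used here, 1718 such intervals of at most 1000 bp separated 2 protein-coding gene starts on the 6 nuclear chromosomes, out of 9048 gaps of this size between neighbouring protein-coding genes in any orientation. Peaks came from ChIP-seq, in which DNA bound by a protein is pulled down with an antibody and sequenced, of B0019.2, which RefSeq annotates as an SPK domain-containing protein. The worms were whole young adults aged 63.5 hours, grown from L1 larvae starved after bleaching, and carried B0019.2 with a TY1, EGFP and 3xFLAG tag at its own locus (strain RW12288). An antibody against GFP was used on chromatin sonicated to 200 to 800 bp. There was 1 group of 2 biological replicates, all worms carried the tag, and control libraries were not analysed here.

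An interval was called bound when it held the summit of a peak in the authors' conservative list made from both libraries (900 peaks) or in the thresholded list of replicate 1 (524 peaks) or replicate 2 (496 peaks). By this rule 183 divergent intervals were bound. A further 502 were candidate-only, meaning that they held a summit of the 55591 ranked candidate regions and none of those 3 lists, and 1033 held no candidate. No read counts are in the lists, so depth is unknown. The signal value that the authors give for a peak has no stated scale and is compared here only within a list.

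In C. elegans, upstream regions are short and accessible chromatin at a shared upstream region often lies between head-to-head genes, each of which initiates transcription on its own strand. Many C. elegans transcripts are trans-spliced, a step that replaces the original 5′ end of the RNA with a short leader, so an annotated gene start can lie downstream of the place where transcription began. Whole adult worms are a mixture of a large germ line with muscle, gut, neurons and skin, and a peak cannot be assigned to one of these tissues.

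The sequences below show what lay at the summits of the 8 bound pairs of highest signal value and of 2 short intervals among those found in both libraries. Each was read from the plus strand of the RefSeq WBcel235 genome, whose chromosomes are those of ce11, as the bases up to 50 bp to either side of the summit or, where the interval was shorter, the part inside it. Capitals mark ACCGTA or CGCGCC on either strand (TACGGT and GGCGCG on the strand shown), the 6-base sequences that led the comparisons of summit windows described further on.
rpl-15/K11H12.8, chrIV:654879-654979: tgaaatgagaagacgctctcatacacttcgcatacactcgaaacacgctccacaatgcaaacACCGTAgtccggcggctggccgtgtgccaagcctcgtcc
K01G5.10/tasp-1, chrIII:10759193-10759293: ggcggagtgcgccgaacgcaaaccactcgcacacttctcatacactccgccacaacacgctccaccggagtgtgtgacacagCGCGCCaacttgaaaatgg
aka-1/ubc-6, chrII:7478851-7478951: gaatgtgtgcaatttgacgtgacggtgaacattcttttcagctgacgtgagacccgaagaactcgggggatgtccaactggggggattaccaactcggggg
rbc-2/ndua-8, chrIII:2528775-2528875: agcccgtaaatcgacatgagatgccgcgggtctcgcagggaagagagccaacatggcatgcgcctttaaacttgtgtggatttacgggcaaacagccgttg
rpl-20/Y17G9B.5, chrIV:4750016-4750116: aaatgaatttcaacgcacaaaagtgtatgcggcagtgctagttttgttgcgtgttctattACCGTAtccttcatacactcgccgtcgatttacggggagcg
tbb-1/rib-2, chrIII:10742645-10742745: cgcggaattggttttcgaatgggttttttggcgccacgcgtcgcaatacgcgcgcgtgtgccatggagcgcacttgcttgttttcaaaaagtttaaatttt
czw-1/F20D12.12, chrIV:7947025-7947125: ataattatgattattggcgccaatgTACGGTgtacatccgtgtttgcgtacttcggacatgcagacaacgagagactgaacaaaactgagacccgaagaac
prp-19/K10D2.5, chrIII:5172644-5172719: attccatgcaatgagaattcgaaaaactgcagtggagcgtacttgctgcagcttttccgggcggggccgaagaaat
gei-14/slc-25A32, chrII:8276232-8276297: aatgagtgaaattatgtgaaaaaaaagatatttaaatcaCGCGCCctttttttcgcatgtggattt
T26A8.4/pdtf-1, chrIV:8432922-8433022: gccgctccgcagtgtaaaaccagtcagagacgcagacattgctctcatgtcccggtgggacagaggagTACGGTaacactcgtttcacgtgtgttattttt
ACCGTA was in the windows of rpl-15, rpl-20, czw-1 and T26A8.4 and CGCGCC in those of K01G5.10 and gei-14. Neither was in the windows of aka-1, rbc-2, tbb-1 and prp-19. Of the 20 pairs of highest signal value, 18 were read in this way, and 10 of these windows held at least 1 of the sequences and 8 held neither.

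Counted per gap, B0019.2 peaks lay in divergent intervals more often than in gaps between genes of other orientation. Of the 1718 divergent intervals, 183 were bound (10.7%, exact 95% interval 9.23 to 12.2), beside 3.93% of the 9048 short gaps of all orientations. Among tandem gaps, where both genes run the same way, 143 of 5541 were bound (2.58%, 2.18 to 3.03). Among convergent gaps, where 2 gene ends face each other, 30 of 1789 were bound (1.68%, 1.13 to 2.39). The order was the same among gaps that held any candidate, with 183 of 685 divergent (26.7%, 23.4 to 30.2), 143 of 1336 tandem (10.7%, 9.1 to 12.5) and 30 of 369 convergent gaps bound (8.13%, 5.55 to 11.4). The exact interval of the divergent share overlapped neither of the others in either count. These shares are per gap: a divergent interval borders 2 gene starts, a tandem gap a single start and a convergent gap no start. Whether orientation mattered beyond the number of starts was not tested.

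Divergent intervals made up 845 kb, or 0.843% of the nuclear genome, and held 164 of the 900 summits of the conservative list (18.2%, 15.8 to 20.9). They held 124 of 524 summits in replicate 1 (23.7%) and 117 of 496 in replicate 2 (23.6%), so the libraries gave like shares. Of the remaining 54691 candidates, 602 lay in them (1.1%). Strong peaks were there more often than weak ones: 117 of the 450 summits at or above the median signal value of the conservative list (26%, 22.0 to 30.3), against 47 of the 450 below it (10.4%, 7.78 to 13.6).

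The bound share varied by chromosome. It was 14.8% on chromosome I (47 of 317), 9.49% on II (30 of 316), 16.5% on III (47 of 284), 9.9% on IV (30 of 303) and 6.92% on V (29 of 419). On X, 0 of 79 divergent intervals were bound, which allows a share of up to 3.80% by 3 counts of the total and up to 4.56% by the exact interval, and 22 of the 79 were candidate-only. The exact intervals of III (12.4 to 21.4) and V (4.68 to 9.79) did not overlap, and neither did those of I (11.1 to 19.22) and V.

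Spacing between the starts of bound pairs ran from 67 to 990 bp, with a median of 476 bp and quartiles of 313.5 and 629.5 bp. Candidate-only pairs were spaced by a median of 563.5 bp (373.5 to 746), and intervals with no candidate by 413 bp. Taken by length, the bound share was 4.9% of intervals up to 200 bp (12 of 245) and 12.4%, 13.7% and 11.9% in the 3 following steps of 200 bp (58 of 469, 54 of 393 and 41 of 345). It was 6.77% from 801 to 1000 bp (18 of 266), and 6.07% in the divergent gaps of 1001 to 1200 bp just outside the limit (13 of 214). Among intervals with a bound or candidate summit, 33.3% were bound up to 200 bp and 16.2% from 801 to 1000 bp.

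**Figure D1:**
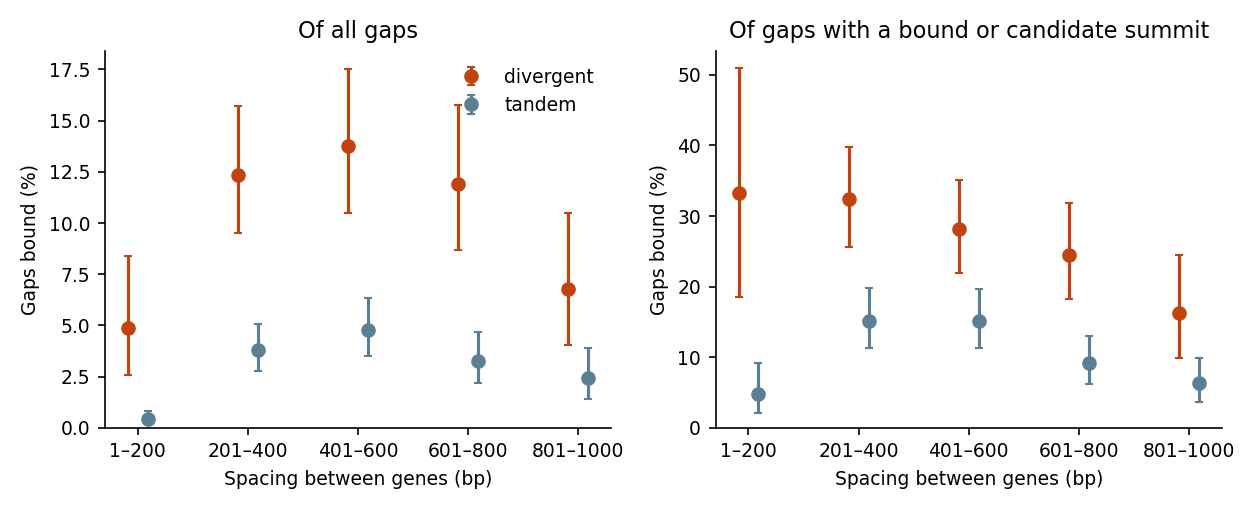
Share of gaps bound (vertical axis, percent) by spacing between neighbouring genes (horizontal axis, bp, in 5 steps of 200 bp), for divergent and tandem gaps, over all gaps (left) and over gaps with a bound or candidate summit (right). Points are shares and bars exact 95% binomial intervals. Divergent points lie above tandem points at every step, 13.7% against 4.79% of all gaps at 401 to 600 bp.

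Tandem gaps followed the same rise and fall with length, at 0.43%, 3.79%, 4.79%, 3.25% and 2.44% of all gaps, and bound tandem gaps had a median length of 475 bp. The difference from tandem gaps was therefore present at each length, although at 801 to 1000 bp the exact intervals among gaps with a candidate (9.9 to 24.4 and 3.71 to 9.89) barely separated. The shorter spacing of bound than of candidate-only pairs depended on how a gene's start was set. With the most upstream start codon in its place, the medians were 585 bp for 184 bound and 584.5 bp for 514 candidate-only pairs, and among pairs up to 500 bp apart they were 334 and 331.5 bp.

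Summits of bound intervals lay toward the middle of the gap. Of 183 bound intervals, 91 had the summit in the central part, the middle 33.3% of the gap (49.7%, 42.3 to 57.2), against 189 of 502 candidate-only intervals (37.6%, 33.4 to 42.1). The share was 61 of 123 in replicate 1 by its own summits (49.6%) and 58 of 117 in replicate 2 (49.6%). The median summit was 67 bp from the midpoint in bound intervals (quartiles 30.5 and 130.5) and 107 bp in candidate-only intervals (48.1 and 198). Within 50 bp of a gene start lay 26 of 183 bound summits (14.2%) and 95 of 502 candidate-only summits (18.9%), shares whose exact intervals overlapped.

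Measured against start codons, the central position was more marked: 123 of 184 bound summits (66.8%, 59.5 to 73.6) fell in the central part, against 211 of 514 candidate-only ones (41.1%, 36.8 to 45.4). Bound summits were then a median of 197 bp from the nearer start codon (143 to 262), and candidate-only summits 145 bp (85.3 to 225). By gene start, the median distance to the nearer start was 148 bp in bound intervals (70.5 to 227) and 127 bp in candidate-only intervals (65 to 210). In bound tandem gaps the summit lay a median of 237 bp upstream of the gene that faces away from the gap, and 217 bp in candidate-only tandem gaps.

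The distance from the midpoint grew with length in both classes. For bound intervals the medians over the 5 steps of 200 bp were 36.8, 49.8, 61, 117 and 168 bp, and for candidate-only intervals 27.8, 61, 105, 165 and 237 bp. Bound summits were nearer the midpoint at each step except the shortest, which held 12 bound and 24 candidate-only intervals. In the same steps, 25%, 48.3%, 55.6%, 53.7% and 44.4% of bound summits lay in the central part. For candidate-only summits the shares were 33.3%, 40.5%, 41.3%, 38.1% and 29.0%, and the exact intervals of the classes overlapped at each step. Bound intervals of higher signal value had the summit in the central part in 47 of 82 cases (57.3%, 45.9 to 68.2) and those of lower signal value in 36 of 81 (44.4%, 33.4 to 55.9), which overlap.

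**Figure D2:**
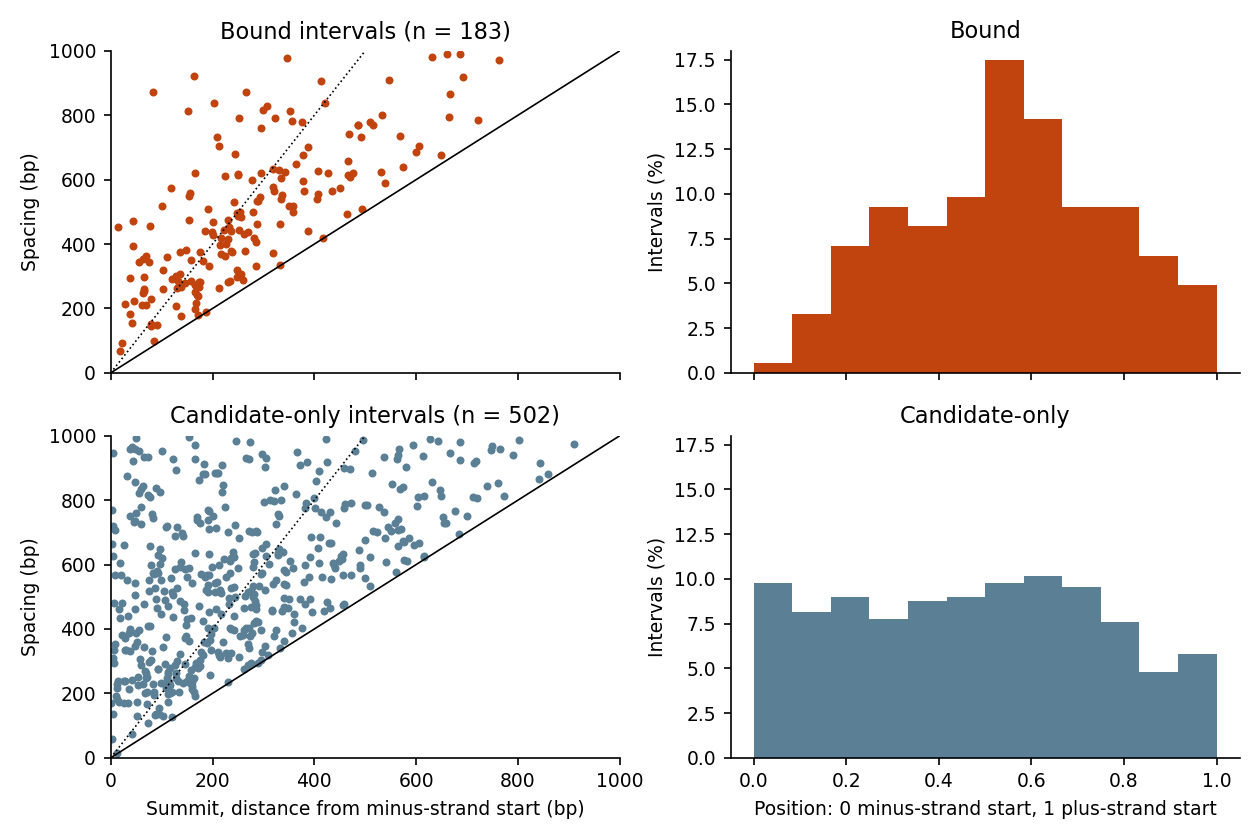
Left, distance of the summit from the minus-strand gene start (horizontal axis, bp) against spacing (vertical axis, bp) for bound (top) and candidate-only intervals (bottom), 1 point an interval; the solid line is the plus-strand start and the dotted line the midpoint. Right, share of intervals (percent) by relative position, where 0 is the minus-strand and 1 the plus-strand start; 49.7% of bound and 37.6% of candidate-only summits lie in the central part.

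Over all bound intervals, the summit position was not symmetric about the midpoint. Of the bound summits, 70 lay nearer the minus-strand start and 112 nearer the plus-strand start (38.3% nearer the minus-strand start, 31.2 to 45.7), while 263 of 502 candidate-only summits lay nearer the minus-strand start (52.4%, 47.9 to 56.8). The median bound summit was 21.5 bp from the midpoint on the plus-strand side. Fewer summits lay nearer the minus-strand start on each of the 5 chromosomes with bound pairs, and in each library (39.8%, 31.1 to 49.1, in replicate 1 and 44.4%, 35.3 to 53.9, in replicate 2). Taken by chromosome, only the exact interval of III (17.3 to 44.9) excluded an even split. Among the 90 intervals in both single-library lists the share was 41.1% (37 intervals, 30.8 to 52.0), and against start codons 44.0% (81 of 184, 36.7 to 51.5). Both of these exact intervals include an even split.

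The libraries found largely the same divergent intervals. Of the 123 intervals with a summit in the list of replicate 1, 90 had one in that of replicate 2 (73.2%, 64.4 to 80.8), which is 76.9% of the 117 intervals of replicate 2 (68.2 to 84.2). In tandem gaps the shares were 57 of 80 (71.2%) and 57 of 77 (74.0%). Where both libraries had a summit in the interval, these were a median of 17 bp apart (quartiles 6 and 31) and at most 95 bp. Of the 183 bound intervals, 89 were in all 3 lists, 26 in the conservative list and that of replicate 1, 15 in the conservative list and that of replicate 2, and 33 in the conservative list alone. The others had no summit in the conservative list, with 7 from replicate 1, 12 from replicate 2 and 1 from both. The conservative list was made from both libraries and is no independent check of either.

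Whether both libraries called an interval went with its signal value. Of the 82 bound intervals in the upper part of the conservative-list signal values, 74 were in both single-library lists (90.2%, 81.7 to 95.7). In the lower part 15 of 81 were (18.5%, 10.8 to 28.7). The conservative-list signal value comes from both libraries together, so this difference follows in part from how the lists were made. A candidate was present in both single-library ranked lists for 177 of 183 bound and 242 of 502 candidate-only intervals. In the ranked list of replicate 1 the median signal value was 62.7 in bound intervals (n = 179) and 22.5 in candidate-only intervals (n = 340), and in that of replicate 2 it was 53.5 (n = 181) and 20.2 (n = 325). These signal values follow from how the classes were made. The 3 bound intervals of lowest conservative-list signal value were rpl-21/C14B9.10 at 62.4, dnc-1/lsm-7 at 64.3 and R05D3.8/rfp-1 at 65.8. In the pooled ranked list, the 3 candidate-only intervals of highest signal value were uvs-1/xpo-1 at 79.3, Y47G6A.25/inx-22 at 76.4 and mre-11/wdr-5.3 at 76.3. Bound intervals ran down to 61.6 in that same list, so the classes overlap in signal value.

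The median conservative-list signal value was 117 in bound divergent intervals (quartiles 94.7 and 154), 103 in bound tandem gaps and 95.7 over the whole list. It varied little with length, with medians of 110, 120, 114, 125 and 104 over the 5 steps of 200 bp. An interval with 2 separate conservative-list summits occurred once, between ecps-1 and atx-2 on chromosome III, which are 838 bp apart. Its stronger summit (signal value 145) lay 203 bp from the ecps-1 start and the weaker (94.3) 85 bp from the atx-2 start. Every other bound interval had at most 1 summit in that list. Whether a peak serves both genes of a pair was not tested.

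The strongest bound pair was rpl-15/K11H12.8 on chromosome IV (gene starts at 654576 and 655390, ce11). rpl-15 encodes the ribosomal protein eL15 and K11H12.8 a homolog of a growth hormone-inducible transmembrane protein. Its signal value was 565 in the conservative list, 284 in replicate 1 and 279 in replicate 2, and its summit lay 353 bp from rpl-15 and 461 bp from K11H12.8. K01G5.10/tasp-1 on III followed at 334, with 170 in replicate 1 and 160 in replicate 2. There the summit was 64 bp from tasp-1, a threonine aspartase homolog, and 721 bp from K01G5.10. The first pair is near the middle of its gap and the second at one edge.

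Of the pairs that followed, aka-1/ubc-6, a FYVE domain protein beside a ubiquitin-conjugating enzyme, had a signal value of 305 (155 in replicate 1, 151 in replicate 2). rbc-2/ndua-8, a WD repeat protein beside a subunit of respiratory complex I, had 287 (158 and 130). tbb-1/rib-2, a beta-tubulin beside an exostosin-like enzyme of heparan sulfate synthesis, had 277 (145 and 135). czw-1/F20D12.12, with the ZW10 kinetochore protein, had 275 (128 and 148), and prp-19/K10D2.5, with a pre-mRNA processing factor, had 273 (142 and 132). The prp-19 interval is 675 bp long, and its summit lay 26 bp from K10D2.5.

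Lower among the 20, npp-3/top-2, a nuclear pore protein beside DNA topoisomerase II, had a signal value of 223 in the conservative list, 134 in replicate 1 and 85.8 in replicate 2. wapl-1/htz-1, the cohesin release factor beside the histone variant H2A.Z, had 219, with 140 in replicate 1 and 82.6 in replicate 2. tim-1/Y75B8A.23, with the timeless homolog, had 209, with 140 and 69.8. The tim-1 summit lay 248 bp from each start, at the exact midpoint, and non-coding genes of the classes ncRNA and snRNA overlapped that interval.

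**Figure D3:**
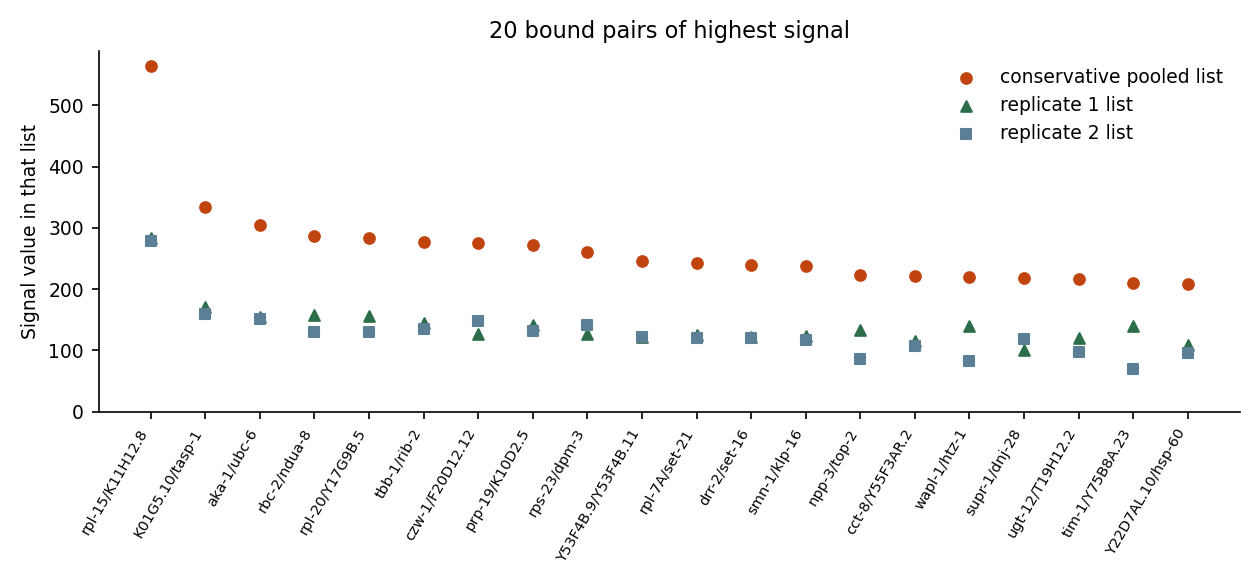
Signal value (vertical axis, the authors' unit, no stated scale) of the 20 bound pairs of highest signal value found in both single-library lists (horizontal axis), in the conservative list (circles), replicate 1 (triangles) and replicate 2 (squares). rpl-15/K11H12.8 stands apart at 565, and the other pairs run from 334 to 208. Values are comparable along a series, not between series.

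Pairs with a ribosomal protein gene were bound in 23 of 45 cases (51.1%, 35.8 to 66.3), beside 10.7% of all divergent pairs, and 13 of these were in the list of replicate 1 and 16 in that of replicate 2. After rpl-15, those of highest signal value were rpl-20/Y17G9B.5 at 283 (157 and 130 in replicates 1 and 2) and rps-23/dpm-3 at 261 (127 and 142). Y17G9B.5 is annotated as a mitochondrial protein of the Toll pathway (ECSIT) and dpm-3 as a subunit of dolichol-phosphate mannosyltransferase. The summit lay nearer the ribosomal protein gene in 8 of the 22 bound pairs with 1 such gene. Pairs with a mitochondrial ribosomal protein gene were bound in 4 of 25 cases (16%, 4.54 to 36.1), with 1 in replicate 1 and 0 in replicate 2. Pairs with a translation factor gene were bound in 4 of 20 cases, with 2 in replicate 1 and 4 in replicate 2. In 2 of these, ctf-4/eef-1G and eif-1/vps-24, the summit lay 8 bp from the start of eef-1G and 1 bp from that of vps-24, an ESCRT-III subunit.

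Germ line and cell division genes also stood in bound pairs at a share above that of all pairs. All gene lists were chosen with earlier results of these data known, so their shares are a description. Oogenesis and maternal RNA regulators were in 8 bound of 16 pairs (50%, 24.7 to 75.3), with 7 in replicate 1 and 8 in replicate 2. The highest was larp-1/wip-1 at 204 (103 and 99.6 in replicates 1 and 2), where larp-1 is a La-related RNA-binding protein. vha-18/pos-1 was at 192 (100.7 and 86.3) and Y53C12B.1/nos-3 at 176 (96.8 and 72.2). pos-1 encodes a maternal RNA-binding protein of the early embryo and nos-3 a Nanos family protein of the germ line. Cell cycle and DNA replication genes were in 17 bound of 42 pairs (40.5%, 25.6 to 56.7), with 13 in replicate 1 and 12 in replicate 2. They included lin-53/nra-2 at 173, rpl-12/lin-54 at 167 and mcm-3/C25D7.15 at 157, where lin-53 and lin-54 are subunits of the DREAM complex and mcm-3 of the replicative helicase.

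Meiosis genes were in 7 bound of 21 pairs (33.3%, 14.6 to 57.0), with 7 in replicate 1 and 4 in replicate 2. rec-8/mex-5 pairs a meiotic cohesin with an RNA-binding protein that polarises the zygote, and its signal value was 155 (88.5 in replicate 1 and 66.7 in replicate 2). P granule and small RNA genes were in 8 bound of 30 pairs (26.7%, 12.3 to 45.9), with 6 in replicate 1 and 4 in replicate 2. Among them, hrde-1/C16C10.13 holds a nuclear Argonaute of the germ line (signal value 150), and coh-4/pid-5, at 153, joins a meiotic cohesin to a gene of the small RNA list. C55B7.11/glh-2, with a Vasa-like helicase of P granules, was at 178 although its starts are 98 bp apart. Chromatin regulators were in 6 bound of 18 pairs (33.3%, 13.3 to 59.0), with 4 in replicate 1 and 6 in replicate 2. They included rpl-7A/set-21 at 243 (125 and 121), drr-2/set-16 at 240 (122 and 121) and wapl-1/htz-1. set-16 encodes a methyltransferase of histone H3 lysine 4.

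Chaperone genes were in 8 bound of 26 pairs (30.8%, 14.3 to 51.8), with 5 in replicate 1 and 6 in replicate 2. Y22D7AL.10/hsp-60 pairs the mitochondrial 10 kDa heat shock protein with its partner chaperonin, genes that also stand head to head in mammals, and its signal value was 208 (110 and 95.5). cct-8/Y55F3AR.2, with a subunit of the cytosolic chaperonin, was at 221 and supr-1/dnj-28 at 219. Proteasome subunits were in 5 bound of 20 pairs (25%, 8.66 to 49.1), and the summit lay nearer the proteasome gene in all 5, of which 2 were in replicate 1 and 3 in replicate 2. Respiratory chain genes were in 5 of 21 (23.8%, 8.22 to 47.2), with 3 in each library. Splicing genes were in 6 of 22 (27.3%, 10.7 to 50.2), of which 1 was in replicate 1 and 3 in replicate 2. Aminoacyl-tRNA synthetase genes were in 1 of 10, found in replicate 2. The splicing pair rsp-2/rsp-1 holds SR proteins on both sides and had a signal value of 114. Pairs with a nuclear hormone receptor gene were bound in 0 of 15 cases and those with a neuropeptide gene in 0 of 7. By 3 counts of the total these allow up to 20% and 42.9%, and by the exact interval up to 21.8% and 41.0%. In each of these 2 lists 1 pair was candidate-only and the rest held no candidate.

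**Figure D4:**
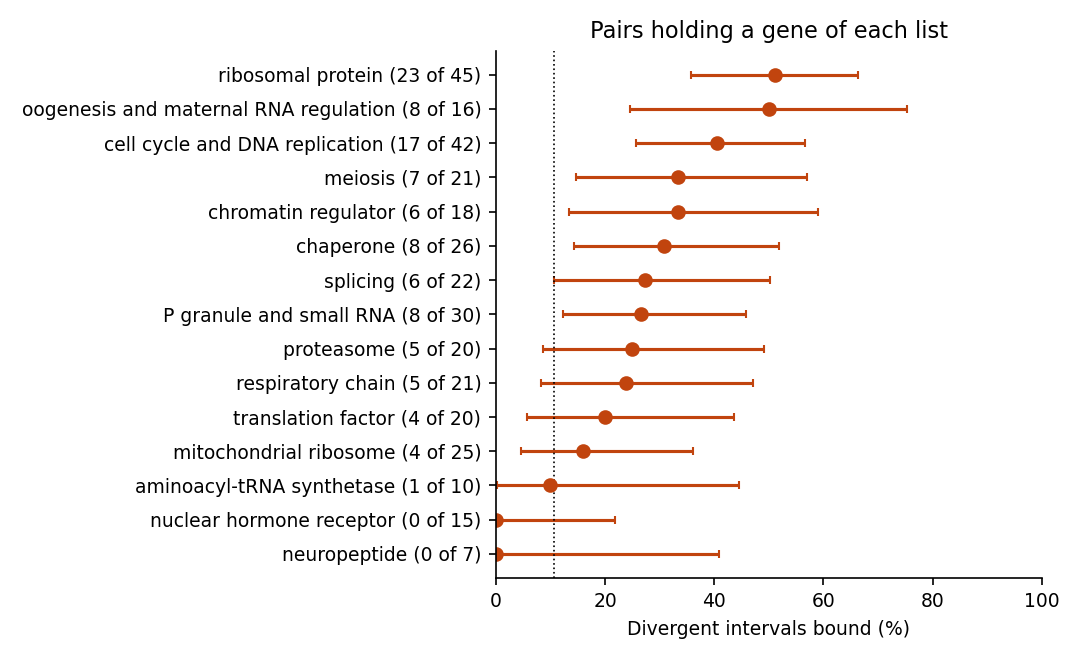
Share of divergent intervals bound (horizontal axis, percent) among pairs that hold a gene of each of 15 lists (rows, with bound and total pairs). Points are shares, bars exact 95% binomial intervals, and the dotted line is the 10.7% of all divergent intervals. Ribosomal protein pairs stand highest at 51.1%, and nuclear hormone receptor and neuropeptide pairs are at 0. The lists were chosen with earlier results of these data known.

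Over all 15 lists, 90 of the 308 pairs that hold a listed gene were bound (29.2%, 24.2 to 34.6), against 93 of the 1410 pairs that hold none (6.6%, 5.36 to 8.02). A further 96 of the 308 and 406 of the 1410 were candidate-only. Where both genes were listed, 15 of 45 pairs were bound (33.3%, 20 to 49.0). The difference between listed and other pairs carries the choice of the lists, made with earlier results of these data known. A pair can count under more than 1 list, and many listed genes are broadly expressed or active in the germ line. A non-coding gene overlapped 27 of 183 bound intervals (14.8%, 9.95 to 20.7), 58 of 502 candidate-only intervals (11.6%) and 69 of 1033 with no candidate (6.68%). Of the bound ones, 23 were of the class ncRNA, 2 held a snRNA gene, 2 a miRNA gene, 1 a snoRNA gene and 1 an antisense RNA gene. One of the miRNA genes lies between smn-1 and klp-16, a survival motor neuron homolog and a kinesin (signal value 239).

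Among bound pairs found in both libraries, the shortest were gei-14/slc-25A32 (67 bp), C55B7.11/glh-2 (98 bp) and T26A8.4/pdtf-1 (145 bp). Between gei-14 and slc-25A32 the summit lay 18 bp from gei-14 and 49 bp from slc-25A32, and its signal value was 186 (110 and 77.4), so a gap much shorter than the sonicated fragments still held a strong summit. T26A8.4/pdtf-1 had 110 (69.4 and 46.2). The longest were larp-1/wip-1 (989 bp), pcs-1/smc-6 (976 bp) and Y48B6A.1/rpl-43 (921 bp). Their summits lay 328, 346 and 163 bp from the nearer start, which was wip-1, pcs-1 and Y48B6A.1.

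The bases at bound summits were richer in G and C than those of other windows. Windows reaching 50 bp to either side of the summit averaged 47.8% GC in bound intervals (SD over intervals 6.96, n = 183) and 39.4% in candidate-only intervals (SD 9.81, n = 502). Windows 300 bp to either side of bound summits averaged 36.9%, those at the midpoints of all divergent intervals 34.6%, and those at bound tandem gaps 45.9%. The windows of replicate 1 averaged 47.3% and those of replicate 2 48.5%. Unlike the sequences shown above, these windows and those counted below were not cut at the gene starts. The uncut window of gei-14/slc-25A32 therefore also held ACCGTA, centred 41.5 bp to the left of the summit.

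The 6-base sequence with the largest excess in bound windows over both candidate-only windows and flanks was ACCGTA, searched on both strands. It was chosen on these windows, so its counts are a description. It was in 54 of 183 bound windows (29.5%, 23.0 to 36.7), 35 of 502 candidate-only windows (6.97%) and 10 of 366 windows 300 bp to either side (2.73%). At the midpoints of all 1718 divergent intervals it was in 86 (5.01%). It was in 40 of 123 windows of replicate 1 (32.5%) and 32 of 117 of replicate 2 (27.4%). Outside divergent intervals, 80 of 736 conservative-list windows held it (10.9%), against 29.5% in the bound divergent windows it was chosen on. Among bound tandem windows, 18 of 143 held it (12.6%).

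CGCGCC was the leading 6-base sequence of the 736 conservative-list summits outside divergent intervals, so the divergent windows did not choose it. It was in 37 of 183 bound windows (20.2%, 14.7 to 26.8), 35 of 502 candidate-only windows (6.97%, 4.9 to 9.56), 2 of 366 flanking windows (0.546%) and 62 of 1718 midpoint windows (3.61%). Bound tandem windows held it in 35 of 143 cases (24.5%). Of these tandem gaps, 129 had a conservative-list summit, which is among the summits that chose CGCGCC. The tandem share is therefore no separate check. Together, 80 of 183 bound windows held at least 1 of the 6-base sequences (43.7%) and 11 held both, against 69 of 502 (13.7%) and 1 in candidate-only windows. The GC content of the windows moved with these counts. Within windows under 40% GC, ACCGTA was in 9 of 22 bound and 12 of 263 candidate-only windows, from 40 to 50% in 28 of 82 and 13 of 158, and from 50% in 17 of 79 and 10 of 81. For CGCGCC these were 4 of 22 and 10 of 263, 13 of 82 and 17 of 158, and 20 of 79 and 8 of 81. The exact intervals of the classes overlapped in each of these GC ranges for CGCGCC. For ACCGTA they overlapped only from 50% GC.

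The matches lay close to bound summits. For ACCGTA this follows in part from its choice on windows within 50 bp of these summits, against flanks and candidate-only windows. Within 150 bp of bound summits there were 76 matches of ACCGTA, of which 63 were within 50 bp (82.9%), and near candidate-only summits 35 of 80 (43.8%). For CGCGCC the counts were 41 of 53 (77.4%) and 43 of 80 (53.8%). Of the 76 ACCGTA matches, 32 were within 25 bp of the summit. By side on the plus strand, 25 were centred 50 to 20 bp to the left, 4 from 20 to 0 bp to the left and 27 from 0 to 30 bp to the right, so matches were sparse just to the left of the summit. With each library's own summits the 3 counts were 16, 6 and 15 of 56 in replicate 1 and 12, 5 and 14 of 50 in replicate 2. Near candidate-only summits they were 11, 4 and 14 of 80, so the dip was not particular to bound summits. The stretch with the fewest matches is also the shortest of the 3. The base before ACCGTA was T in 37 of the 59 matches inside bound windows. The base at position 9, counted from 1 at the A of ACCGTA, was C in 38. The same bases led in candidate-only windows, with T in 17 and C in 19 of 35 matches. In bound windows the match was on the coding strand of the nearer gene in 35 of 59 cases (59.3%, 45.7 to 71.9). That interval includes an even split.

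**Figure D5:**
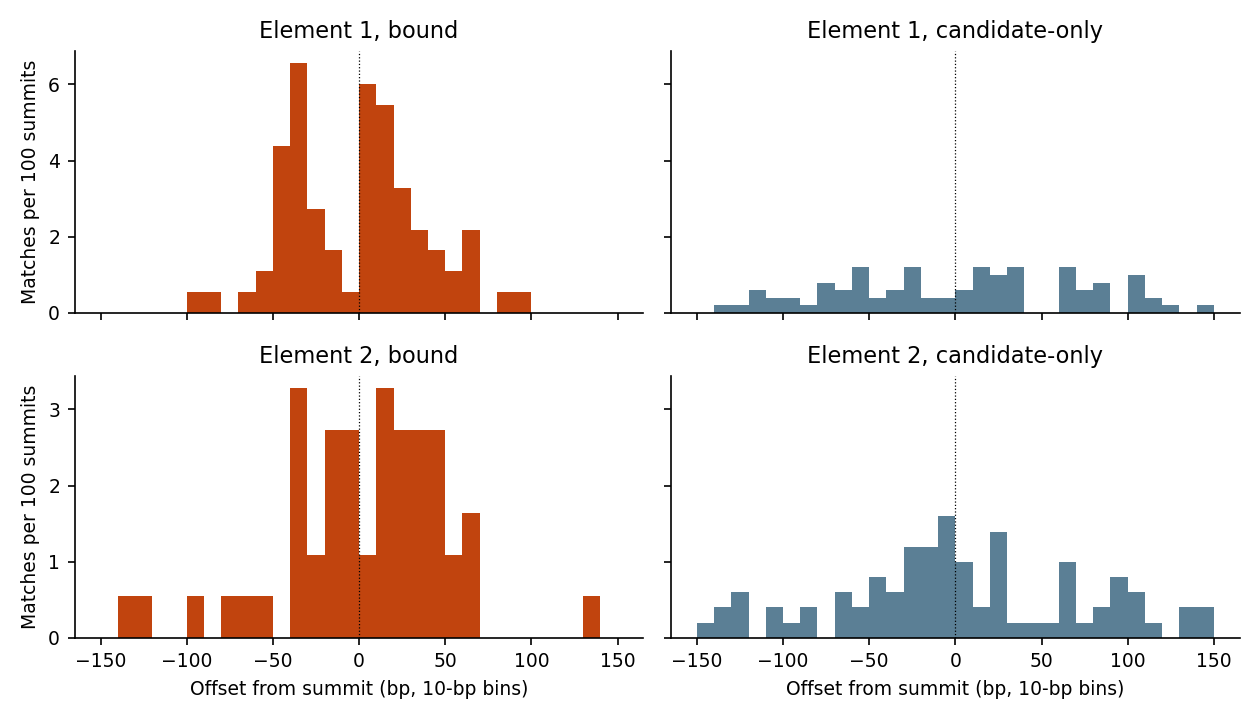
Matches per 100 summits (vertical axis) by offset of the match centre from the summit (horizontal axis, bp on the plus strand, 10-bp bins), for the sequence chosen on divergent windows (element 1, top) and the one chosen outside them (element 2, bottom), in bound (left) and candidate-only intervals (right). Within 50 bp lie 82.9% of bound and 43.8% of candidate-only matches of element 1. Element 1 was chosen on bound windows of this reach, so part of this difference follows from the choice.

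Read over whole intervals, at the summit or not, ACCGTA was in 326 of the 1718 divergent intervals. Of these, 72 were bound (22.1%, 17.7 to 27), against 111 of the 1392 that lack it (7.97%, 6.61 to 9.52). ACCGTA was chosen on summit windows of these same bound intervals, so the difference carries that choice and is no separate check. CGCGCC was in 205, of which 49 were bound (23.9%, 18.2 to 30.3), against 134 of 1513 without it (8.86%, 7.47 to 10.4). Intervals with a match were longer, with a median of 591.5 bp with and 442.5 bp without ACCGTA and 517 and 468 bp for CGCGCC. Most intervals with either sequence were not bound. The share of bound windows with at least 1 of them was 43.7% within 50 bp of the summit and 54.6% within 100 bp.

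Of the named motifs searched on both strands, the E2F-type letters GCGGGAA were in 14 of 183 bound (7.65%, 4.25 to 12.5) and 6 of 502 candidate-only windows (1.2%, 0.44 to 2.58). CTGCGTCTC was in 12 of 183 bound (6.56%) and 14 of 502 candidate-only windows (2.79%), with exact intervals that overlap. The TATA letters TATAAA were in 3.28% of bound and 8.96% of candidate-only windows, and the GATA letters GATAAG in 1.09% and 4.38%. The trans-splice acceptor letters TTTCAG were in 9.29% and 15.7%. The exact intervals of the classes overlapped for these 3 motifs as well. The E-box CACGTG (1.64% and 2.19%), the Sp1-type letters GGGCGG (4.92% and 4.98%), the CHR letters TTTGAA (24.6% and 24.7%), GAGAGA (11.5% and 12%) and TTTTTTTT (6.01% and 8.17%) were at like shares. The shares at the midpoints of all divergent intervals were 1.22% for GCGGGAA and 1.28% for CTGCGTCTC. Bound windows were richer in G and C than candidate-only windows, and the named motifs were not counted within ranges of GC content. How far GC content alone gives these differences was not tested.

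The classes have an edge at the gene starts as well. A further 13 conservative-list summits lay within 100 bp inside a gene of a divergent pair, and 2 of those pairs were bound by the rule used here.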

How the data were processed

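Peak lists of 2 ChIP-seq libraries were used, both biological replicates of 1 group per the labels, on assembly ce11 per the labels. The authors deposited a ranked and a thresholded list for each library and for both together, chosen by the irreproducible discovery rate (IDR), a score of how well peak ranks agree. The deposited signal of a peak is the authors' value with no stated scale, and the deposited pooled ranked list gives −log10 of the global IDR. No candidate-only interval reached an IDR of 0.01 or less there. Which aligner and caller were used is not given in the sources used here. Pooled ranked lists hold 16 columns of per-library values without a sample name, which were left out.

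A summit is the deposited peak start plus its deposited summit offset, a whole number of bases. Genes came from Ensembl release 115 (19973 protein-coding genes, symbols and WormBase IDs), and sequence and products from RefSeq on WBcel235, with chromosomes matched by name. Intervals run from one gene end to the next with no protein-coding gene overlapping. The strongest conservative-list summit stood for an interval, otherwise that of replicate 1, then of replicate 2. Intervals on shares are exact 95% binomial ones and cover counting error only. No p-values were computed, since the design has 1 group. Members, gene lists (symbol patterns) and motifs were chosen with earlier results of these data known. The 20 pairs of highest signal in all 3 lists, the 3 highest of each gene list and the 3 shortest and longest were eligible to be named. Pairs at the edge of the threshold and the pair with 2 summits were named after their values were seen. Gap finding was tested on simulated data. Alternatives were other lists, a limit of 500 bp, start codons, overlap of 1 bp, and sequence windows of 25 and 100 bp to either side. Tools were Python 3.11.15, pandas 2.3.3, numpy 2.4.6, matplotlib 3.10.9 and scipy 1.17.1.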

Additional observations from a re-analysis of the deposited data

How the results depend on the processing

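Depth is unknown and control libraries were not analysed here, so how far a list's length limits the counts was not tested. No paired analysis was possible because all samples belong to 1 group. Leaving out a replicate, which keeps the other library's list alone, gave 117 to 123 bound intervals (183 with all lists), 6.81 to 7.16% of divergent intervals, a median spacing 90 to 91 bp below that of candidate-only intervals and 49.6% of summits in the central part. Pairs with a listed gene were then bound in 18.8 to 19.5% and pairs with none in 4.04 to 4.61%, an alternative chosen after seeing the data. The upper part of the conservative list by signal gave 117 intervals (6.81%), and a limit of 500 bp gave 100. The difference in median spacing, bound minus candidate-only, was -87.5 bp and turned to 2.5 bp at a limit of 500 bp and to 0.5 bp with start codons. Start codons also gave 66.8% of summits in the central part. Bound windows with ACCGTA or CGCGCC were 24.6% within 25 bp of the summit and 54.6% within 100 bp, against 8.37% and 22.1% of candidate-only windows. Within 100 bp, 3 motifs at like shares changed order, with GGGCGG in 10.9%, TTTGAA in 49.7% and GAGAGA in 19.7% of bound windows, against 9.36%, 43.8% and 19.5% of candidate-only windows. The conservative list alone, the other pooled list, leaving out small RNA genes and peak overlap kept the count between 163 and 196 and the share between 9.49 and 11.4%. The cause of these shifts was not tested, other than that shorter lists and narrower windows hold fewer summits and matches by construction.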
